A study of Mus musculus with 45 samples.

Results

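The 8 genes described here encode the transcription factors that mark or direct the tuft cell lineage: Pou2f3, Gfi1b, Spib, Hmx2, Hmx3, Sox9, Sox4 and Runx1. They were chosen by name, and all 8 are among the 47729 genes of the count and TPM tables and among the 14020 genes tested. The study asked whether obesity induced by a high fat diet changes gene expression in tuft cells of the mouse small intestine. Male C57BL/6J mice, 5 weeks old at arrival and kept at thermoneutrality, ate a reference diet (RFD) with 10% fat or a high fat diet (HFD) with 60% fat. Epithelial cells were sorted by surface markers, and the RNA of each mouse was amplified with Smart-seq2 and sequenced in bulk as 1 library. The study prints the gate as EpCAM+CD45+ Siglec-F+ in its methods and as EpCAM+ Siglec-F+ in its results. Its methods also state that cells carrying CD45 were left out, so the CD45 status of the sorted cells is unclear. The 9 week groups held 11 RFD and 11 HFD mice, and the 22 week groups 11 RFD and 12 HFD mice. The labels print 9 weeks for all 45 libraries, and the other set is assigned to 22 weeks following the study, so the feeding time and the set of libraries cannot be told apart. No genetic change is given for any mouse. The 22 week mice also went through a glucose gavage and an insulin injection for tolerance tests in the weeks before sampling, on both diets, which the study does not describe for the 9 week mice.

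Tuft cells are rare chemosensory cells of the gut epithelium that sense luminal metabolites and parasites, release IL-25 and start type 2 immune responses. They arise from the same crypt stem cells as enterocytes and secretory cells, and the POU domain factor Pou2f3 is required for them to form. Gfi1b, Spib and Runx1 are better known from blood cells, Hmx2 and Hmx3 from the inner ear and hypothalamus, and Sox9 and Sox4 from crypt progenitors, so several of these genes are also used by cells that a sort can carry along.

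Tuft markers were present in all libraries, but other cells were too. Of 24 tuft genes, between 21 and 24 had a read in every one of the 45 libraries, and Dclk1 and Trpm5 were read in all 45. The amount of tuft RNA still varied widely. Levels are in CPM, the reads of a gene relative to the size of its library after that size was scaled by normalization. The summed level of the 24 genes ran from 4361 to 31313 CPM on RFD at 9 weeks and from 489 to 30591 on HFD. At 22 weeks it ran from 5784 to 38813 on RFD and from 1722 to 34718 on HFD. Libraries held between 189340 and 4690213 reads on genes. The HFD mouse numbered 80 at 9 weeks had the lowest tuft level, and its 8 Paneth cell genes summed to 668367 CPM. The scaling enlarged this sum, so it is not a share of the reads. In that library 96 reads of Sox9 among 1645156 stood as 106.9 CPM. The Paneth genes summed to more than the tuft genes in 3 of 11 RFD and 8 of 11 HFD libraries at 9 weeks and in 2 of 11 and 4 of 12 at 22 weeks. The 12 enterocyte genes did so in 3 and 6 libraries at 9 weeks and in 3 and 7 at 22 weeks. The 3 RFD mice with the lowest tuft levels at 9 weeks were all from the mice numbered in multiples of 10, 1 of 3 series into which the mouse numbers of 43 of the 45 libraries fall. The labels do not say what the series are, so values within each series are given as a check for a batch.

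All 8 genes lie on the assembled mouse chromosomes (build GRCm38, GENCODE M21). Pou2f3 (ENSMUSG00000032015) is on chromosome 9 from 43123939 to 43210369, Gfi1b (ENSMUSG00000026815) on chromosome 2 from 28609450 to 28621982 and Spib (ENSMUSG00000008193) on chromosome 7 from 44525993 to 44532071, all on the minus strand. Hmx3 (ENSMUSG00000040148, chromosome 7 from 131542867 to 131544925) and Hmx2 (ENSMUSG00000050100, chromosome 7 from 131548773 to 131558014) are neighbours on the plus strand with 3847 bases between them. Both sit inside the annotated span of Fgfr2 on the opposite strand, and because the library kit does not mark strand, reads of the overlap cannot be told apart. Sox9 (ENSMUSG00000000567) is on chromosome 11 from 112782224 to 112787760 on the plus strand. Sox4 (ENSMUSG00000076431) is on chromosome 13 from 28948919 to 28953713 on the minus strand and overlaps the non-coding gene Gm26735. Runx1 (ENSMUSG00000022952) spans chromosome 16 from 92601466 to 92826149 on the minus strand, with a non-coding antisense gene, Gm26626, inside it that had a median of 0 reads.

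Promoter sequences from RefSeq (GRCm38.p6) were found for 6 of the 8 genes. The 250 bases before the start sites are shown for Runx1, which has a distal and a proximal promoter, and for the neighbours Hmx3 and Hmx2, because Runx1 passed the diet test and the 2 Hmx genes moved together across mice. Capitals mark a CCAAT box on either strand (CCAAT or ATTGG) or a TATA box (TATAAA). The Runx1 windows are chr16:92826075-92826324 and chr16:92697330-92697579 on the minus strand, and those of Hmx3 and Hmx2 are chr7:131542713-131542962 and chr7:131548507-131548756 on the plus strand. The start sites are those of RefSeq, so the Hmx3 and distal Runx1 windows reach into the GENCODE spans given above.
Runx1 distal promoter: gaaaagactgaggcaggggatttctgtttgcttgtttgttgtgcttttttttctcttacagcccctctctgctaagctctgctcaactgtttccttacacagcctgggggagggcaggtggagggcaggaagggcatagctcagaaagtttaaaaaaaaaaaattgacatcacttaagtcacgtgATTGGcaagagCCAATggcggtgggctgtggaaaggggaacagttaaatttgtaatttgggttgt
Runx1 proximal promoter: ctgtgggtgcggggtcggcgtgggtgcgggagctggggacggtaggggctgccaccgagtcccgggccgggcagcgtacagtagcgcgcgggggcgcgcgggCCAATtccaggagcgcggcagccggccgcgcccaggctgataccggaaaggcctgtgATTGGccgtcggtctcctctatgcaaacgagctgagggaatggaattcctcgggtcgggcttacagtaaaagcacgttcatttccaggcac
Hmx3 promoter: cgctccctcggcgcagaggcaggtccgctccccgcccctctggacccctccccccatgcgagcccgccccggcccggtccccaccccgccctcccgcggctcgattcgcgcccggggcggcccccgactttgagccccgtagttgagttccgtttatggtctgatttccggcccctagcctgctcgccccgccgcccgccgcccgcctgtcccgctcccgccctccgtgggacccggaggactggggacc
Hmx2 promoter: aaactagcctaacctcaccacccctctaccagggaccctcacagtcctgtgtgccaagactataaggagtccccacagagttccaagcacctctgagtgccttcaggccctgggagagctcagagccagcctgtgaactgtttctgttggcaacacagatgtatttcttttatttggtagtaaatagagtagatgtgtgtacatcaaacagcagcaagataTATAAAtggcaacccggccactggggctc

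The promoters of the neighbours were unlike in composition. Hmx3 had 76.8% G and C and held none of the motifs searched, whereas the window before the first of 2 Hmx2 start sites had 49.6% and a TATAAA 29 bases before the start site. Each Runx1 window held 2 CCAAT boxes, on opposite strands, at 45.6% G and C in the distal and 67.6% in the proximal window. A CCAAT box occurred in 33.8% and a TATAAA in 12.4% of 32851 promoters of this length. The letters of 4 factor motifs were also searched on both strands: the octamer ATGCAAAT read by POU factors (1.6% of all promoters), the RUNX motif TGTGGT (4614 of the promoters), the ETS motif GAGGAAGT of the SPIB type (2.44%) and the SOX motif ACAAAG (16.5%). None of the 8 promoter entries of the 6 genes held one of these 4, and no motif searched contains another.

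The levels of the 8 genes spanned a wide range. They were ordered by the deposited TPM, a level per transcript length, and are given as medians over the 45 libraries. Spib, an ETS factor also used by B cells and M cells, was highest with 169.67 TPM and lay above Gfi1b in 45 of 45 libraries. Gfi1b, a zinc finger repressor, had 68.15 TPM and Sox9, an HMG box factor of crypt progenitors, had 52.8 TPM. Their order was not fixed. Gfi1b was above Sox9 in 1 of 11 RFD and 3 of 11 HFD libraries at 9 weeks, but in 10 of 11 and 11 of 12 at 22 weeks. Pou2f3 followed with 41.22 TPM and was below Sox9 in 31 of 45 libraries. The mean log2 difference of Sox9 over Pou2f3 was 0.386 (SD 0.653 over libraries). Sox9 was above Pou2f3 in 9 of 11 RFD and 9 of 11 HFD libraries at 9 weeks, and in 6 of 11 and 7 of 12 at 22 weeks.

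**Figure D1:**
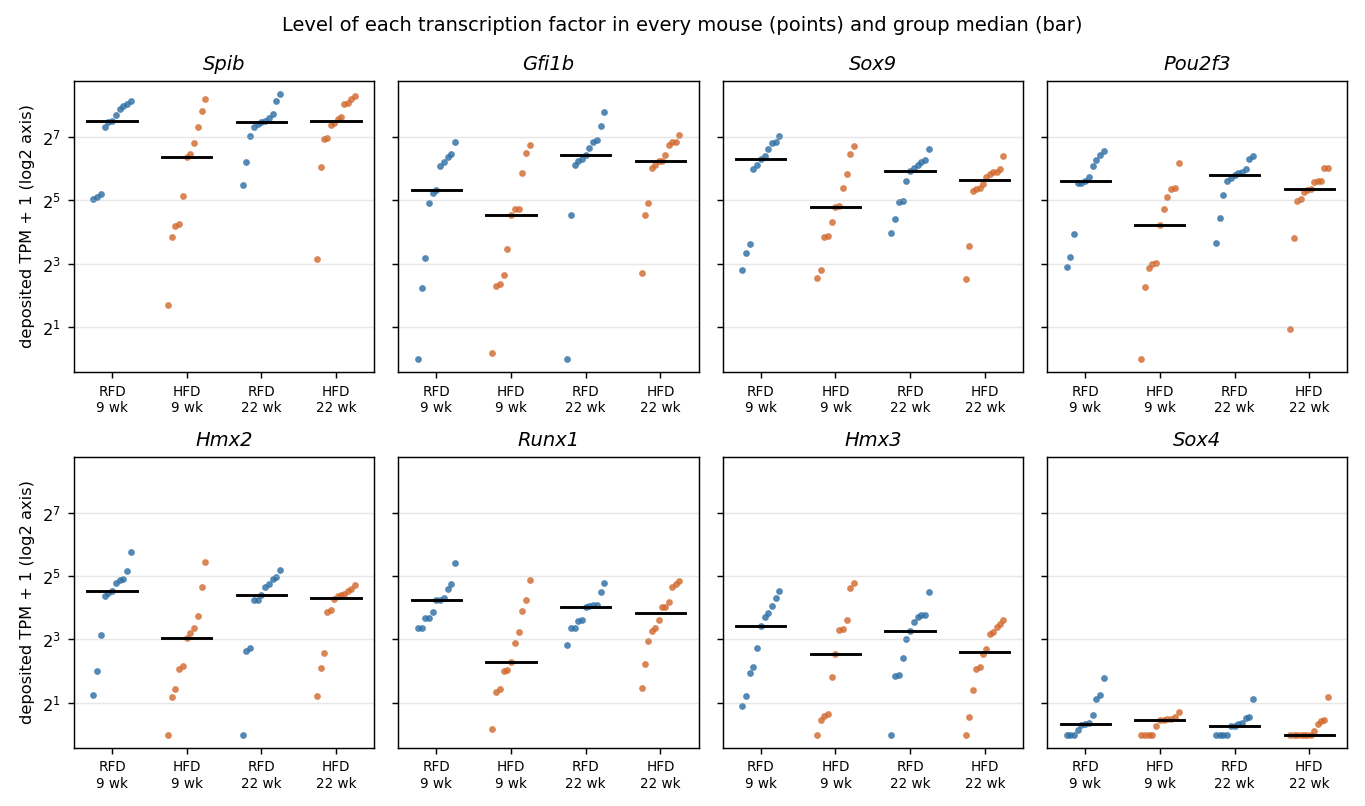
Deposited TPM plus 1 on a log2 axis for each of the 8 genes in the 45 mice, by diet and feeding time. Each point is 1 mouse and the bar is the group median. Spib is highest, Sox4 is at or near 0, and on HFD at 9 weeks the Runx1 median is 3.84 TPM against 17.99 TPM on RFD.

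The homeobox gene Hmx2 had 18.35 TPM and was above Runx1, a runt domain factor with 11.81 TPM, in 27 of 45 libraries, which does not separate them. Hmx3 had 6.99 TPM and was below Runx1 in 37 libraries. Sox4, a second SOX factor of progenitors, stood apart at the bottom with 0.21 TPM. It had no read in 18 of 45 libraries and at most 44 reads in any of them, so its changes are near the limit of detection. Among the other genes, Pou2f3 had no read in 1 library, Gfi1b and Hmx2 in 2 each and Hmx3 in 3.

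The diet comparison at 9 weeks asked whether the lineage program shifts with short HFD feeding. All 8 genes had a lower estimate on HFD, with a median log2 fold change of -0.90 against -0.05 over all genes tested. Of the 14020 genes, 52.7% had a log2 fold change below 0. Only Runx1 passed at 0.1 after Benjamini-Hochberg adjustment over all genes tested (edgeR's quasi-likelihood test), 1 of 8 genes where 3.32% of all genes passed, and 1.33% passed in the lower direction. An unadjusted p under 0.05 with a lower estimate was reached by 4 of the 8, Pou2f3, Hmx2, Sox9 and Runx1, against 8.27% of all genes, and by none with a higher estimate, against 9.73%. In either direction it was 4 of 8 against 18.0%. DESeq2 called 2 of the 8 lower, against 5.01% of all genes, limma-voom with sample weights called 7, all but Sox4, against 13.7%, and limma on log2(TPM + 1) called 0, against 0.0143%. In bulk libraries, fewer tuft cells and less RNA of a gene per tuft cell cannot be told apart.

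Runx1, which takes part in blood formation, was the one gene of the 8 that fell past the threshold with edgeR. On RFD at 9 weeks it had 14.9 CPM in the lowest mouse, 55.0 at the median and 119.5 in the highest, and on HFD 3.34, 19.4 and 68.3 CPM. HFD left 10 of 11 mice under the RFD median and 3 under every RFD mouse, so the groups still overlapped. The estimate was -1.25 on the log2 scale with an SE of 0.34, and edgeR's quasi-likelihood test gave an adjusted p of 0.0678. Within the 3 number series the HFD mean was lower by log2 differences of -1.27, -1.44 and -1.02. The call did not hold in 6 of 12 other settings, which were both covariates for cell makeup, both TPM scales and both ways of leaving out libraries. Without the 2 libraries under 500000 reads (RFD mouse 40 and HFD mouse 50) the log2 fold change was -1.24 with adjusted p = 0.109, and without the library lowest in tuft genes in each diet group (RFD mouse 40 and HFD mouse 80), an alternative chosen after seeing the data, it was -1.16 with adjusted p = 0.119.

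Pou2f3, the factor that tuft cells need to form, had 31.8, 142.3 and 249.7 CPM in the lowest, median and highest mouse on RFD at 9 weeks. On HFD these were 0, 40.04 and 178.8 CPM, and 10 of 11 mice were below the RFD median. The mouse at 0 was number 80, whose 1645156 reads allow a level of up to 1.82 CPM before normalization. Pou2f3 was estimated at -1.19 (log2, SE 0.50, 95% interval -2.23 to -0.16), which did not pass after adjustment (edgeR adjusted p = 0.203). It was below 0 in all 3 series, at -1.88, -2.04 and -0.77, and the second of these, the multiples of 10, was -0.26 without mouse 80. With DESeq2 in place of edgeR the adjusted p was 0.0761.

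Gfi1b and Spib, both known from blood cell lineages, differed in how evenly the mice moved. Gfi1b had 0, 73.5 and 194.0 CPM on RFD and 1.11, 36.1 and 140.4 CPM on HFD in the lowest, median and highest mouse, with 9 of 11 HFD mice below the RFD median. Gfi1b was estimated at -0.81 (log2, SE 0.60, edgeR adjusted p = 0.495), and its direction in the series of multiples of 10 turned on 1 mouse. The HFD mean there was higher by 1.65 with RFD mouse 40, whose 0 reads of Gfi1b allow up to 15.8 CPM before normalization, and lower (-0.26) without it. Spib had 144.6, 524.1 and 686.4 CPM on RFD and 27.8, 202.2 and 743.3 CPM on HFD. Although 5 of 11 HFD mice were below every RFD mouse, the highest mouse of all was on HFD, and the log2 fold change was -0.89 (SE 0.45, edgeR adjusted p = 0.299).

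The neighbours Hmx2 and Hmx3 gave estimates of different size. Hmx2 had 6.37, 39.5 and 92.2 CPM on RFD and 0, 11.8 and 71.2 CPM on HFD. Hmx2 was estimated at -1.17 (log2, SE 0.49, edgeR adjusted p = 0.197), and 9 of 11 HFD mice were below the RFD median. Hmx3 had 1.86, 10.46 and 30.3 CPM on RFD and 0, 5.83 and 34.3 CPM on HFD. Hmx3 was estimated at -0.38 (log2, SE 0.60, edgeR adjusted p = 0.795), with 6 of 11 HFD mice below the RFD median and 4 below every RFD mouse, while the highest mouse of all was on HFD.

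The SOX genes did not pass either. Sox9, which marks crypt base and Paneth cells as well as tuft cells, had 38.2, 326.0 and 590.9 CPM on RFD and 46.6, 106.9 and 454.0 CPM on HFD. The estimate was -0.90 (log2, SE 0.42, 95% interval -1.79 to -0.02, edgeR adjusted p = 0.266), with 9 of 11 HFD mice below the RFD median and an HFD mean that was higher by 0.86 in the series of multiples of 10. Sox4 had 0, 1.17 and 13.0 CPM on RFD and 0, 1.85 and 8.91 CPM on HFD. The estimate of -0.54 (log2, SE 0.91, edgeR adjusted p = 0.813) stands beside 2 RFD mice with 44 and 25 reads, against at most 8 reads in any other mouse at 9 weeks, and 7 of 11 HFD mice were above the RFD median. A lower level on HFD in all 3 series was seen for 5 of the 8 genes, Pou2f3, Spib, Hmx2, Hmx3 and Runx1, and for Hmx3 the series of multiples of 10 was at 0.45 without mouse 80. These values without mice that had no read of a gene were added after seeing the data.

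After 22 weeks the estimates were again below 0 for all 8 genes, with a median log2 fold change of -0.51 against -0.03 over all genes, 52.1% of which were below 0. None of the 8 passed an adjusted p under 0.1 with edgeR, where 0.792% of all genes passed. None had an unadjusted p under 0.05, which 10.3% of all genes reached, 5.61% in the lower and 4.69% in the higher direction. DESeq2 and limma on log2(TPM + 1) also called 0, against 1.2% and 0.0785% of all genes in the lower direction. limma-voom with sample weights called 3, Pou2f3, Gfi1b and Runx1, all lower on HFD, against 9.84%.

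Pou2f3 at 22 weeks had 31.2, 156.0 and 248.0 CPM in the lowest, median and highest mouse on RFD and 4.52, 99.5 and 194.4 CPM on HFD. The estimate for Pou2f3 was -0.57 (log2, SE 0.35, 95% interval -1.29 to 0.15, edgeR adjusted p = 0.604), with 10 of 12 HFD mice below the RFD median and values of -0.65, -0.82 and -0.60 within the series. Runx1 had 20.7, 63.8 and 129.5 CPM on RFD and 14.7, 49.6 and 100.8 CPM on HFD. The estimate for Runx1 was -0.37 (log2, SE 0.31, edgeR adjusted p = 0.737), and 8 of 12 HFD mice were below the RFD median. Both ranges overlapped over most of their length.

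The blood lineage factors showed the same overlap at 22 weeks. Gfi1b had 0, 136.0 and 289.7 CPM on RFD and 15.8, 100.9 and 172.4 CPM on HFD, with a log2 fold change of -0.52 (SE 0.45, edgeR adjusted p = 0.745). The RFD mouse numbered 3 had no read of Gfi1b, Hmx2 or Hmx3 among 927740 reads, which allows up to 3.23 CPM before normalization. Spib had 123.7, 566.6 and 930.7 CPM on RFD and 40.7, 476.3 and 917.8 CPM on HFD, and its log2 fold change of -0.12 (SE 0.32, 95% interval -0.79 to 0.55, edgeR adjusted p = 0.939) was the smallest of the group in size.

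Hmx2 at 22 weeks had 0, 44.9 and 77.5 CPM on RFD and 4.52, 29.9 and 50.8 CPM on HFD (log2 fold change -0.49, SE 0.43, edgeR adjusted p = 0.758). Although 11 of 12 HFD mice were below the RFD median, the series of numbers 1 to 8, which holds the RFD mouse without a read, gave a difference of 1.35, with HFD higher, and of -0.16 without that mouse. Hmx3 had 0, 12.4 and 32.4 CPM on RFD and 0, 6.24 and 15.7 CPM on HFD (log2 fold change -0.79, SE 0.51, edgeR adjusted p = 0.626), and 9 of 12 HFD mice were below the RFD median. Sox9 had 53.9, 295.4 and 490.0 CPM on RFD and 38.4, 202.5 and 344.0 CPM on HFD (log2 fold change -0.36, SE 0.31, edgeR adjusted p = 0.745), with 11 of 12 HFD mice below the RFD median. Sox4 was without a read in 4 of 11 RFD and 7 of 12 HFD libraries, and its log2 fold change was -0.88 (SE 0.89, edgeR adjusted p = 0.794). At this time 3 of the 8 genes, Pou2f3, Sox9 and Sox4, were lower on HFD within all 3 series. The count turned on RFD mouse 3. Without it, the series of numbers 1 to 8 was at -0.70 for Gfi1b and -0.83 for Hmx3, in place of 1.38 and 0.37. Gfi1b, Hmx2 and Hmx3 were then below 0 in all 3 series. For Sox4 that series was at -0.02 without the mice that had no read. These values were also added after seeing the data.

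Whether the diet effect changed between the feeding times was tested as an interaction. None of the 14020 genes passed (0% called by edgeR, DESeq2 and limma-voom), and 3.22% had an unadjusted p under 0.05, 1.94% with a more positive and 1.28% with a more negative diet effect at 22 weeks, none of them among the 8. The estimate was below 0 for 2 of the 8, Hmx3 and Sox4, and for 45.7% of all genes. The interaction estimate was largest for Runx1, at 0.94 (SE 0.47, 95% interval -0.01 to 1.90, edgeR unadjusted p = 0.0508), and for Pou2f3 it was 0.68 (SE 0.63, 95% interval -0.58 to 1.95). The intervals do not show that the effects at the 2 times were alike.

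**Figure D2:**
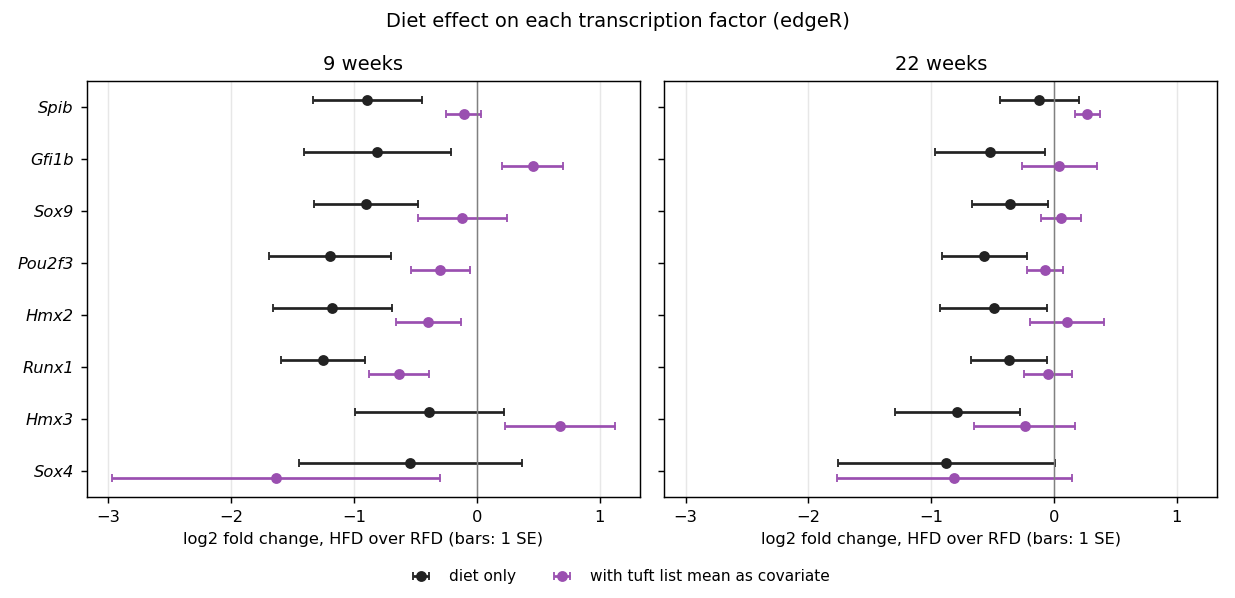
Log2 fold change of HFD over RFD for the 8 genes at 9 weeks (left) and 22 weeks (right), with bars of 1 SE, from edgeR. Black points are from the diet alone and purple points are from the fit that also holds the mean of the 24 tuft genes, in which Runx1 at 9 weeks is at -0.63 and Gfi1b is at 0.46.

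The level of tuft RNA moved with these results. Of the 24 tuft genes, 23 had a log2 fold change below 0 at 9 weeks (median -0.95) and 22 at 22 weeks (median -0.38). The mean log2 CPM of the 24 was 7.85 ± 1.02 on RFD and 6.52 ± 1.67 on HFD at 9 weeks (SD, n = 11 each). It was 8.42 ± 0.93 on RFD (SD, n = 11) and 7.946 ± 1.153 on HFD (SD, n = 12) at 22 weeks. Within the number series the HFD mean of the tuft list was lower by log2 differences of -1.99, -0.85 and -0.36 at 9 weeks and of -0.48, -0.51 and -0.36 at 22 weeks. Genes of some other cells had higher estimates on HFD at 9 weeks. An estimate below 0 was seen for 1 of 8 stem, 1 of 7 goblet, 0 of 6 proliferation and 0 of 8 Paneth genes. It was also seen for 2 of 8 enteroendocrine and 2 of 6 B cell and myeloid genes tested. In contrast, 8 of 12 enterocyte, 5 of 5 T cell and 3 of 4 M cell genes tested were below 0. Olfm4, Smoc2 and Gkn3 were called higher on HFD, 3 of 8 stem genes, against 2.00% of all genes. The median summed level of the 8 stem genes was 376 CPM on RFD and 1381 on HFD. Of 6 proliferation genes, none passed with edgeR and 5 had an unadjusted p under 0.05 with a higher level, against 9.73% of all genes. DESeq2 called 4 and limma-voom 6 of the proliferation genes higher. The 8 Paneth genes had medians of 3171 and 28679 CPM, and none of them passed with edgeR (1 had an unadjusted p under 0.05, and DESeq2 called 2 and limma-voom 7 higher). For these proliferation and Paneth calls, the share of all genes that DESeq2 and limma-voom called higher is not given here. In the lower direction they called 5.01% and 13.7% of all genes, against 1.33% with edgeR. The 5 of 9 T cell genes that were tested stayed at or below 49.0 CPM in sum in every library at 9 weeks. At 22 weeks they stayed at or below 99.8 CPM. The 6 of 8 B cell and myeloid genes that were tested reached higher sums in some libraries. Their medians at 9 weeks were 28.0 CPM on RFD and 6.62 on HFD, with highest sums of 1266 and 1322 CPM. The medians at 22 weeks were 23.5 and 9.14 CPM, with highest sums of 307 and 3024 CPM. The 4 of 6 M cell genes that were tested summed to at most 316.5 CPM in any library. Gp2, which the study used as its M cell marker, was not among the genes tested. It had a read in 8 libraries, with at most 150 reads. At 22 weeks no stem, proliferation or Paneth gene passed with edgeR, with median log2 fold changes of 0.53, 0.65 and 1.38 and an unadjusted p under 0.05 for 1 stem gene and none of the others. All 8 enteroendocrine genes had an estimate below 0 at that time. Cck and Pyy, hormone genes of those cells chosen after their values were seen, were called lower, against 0.357% of all genes. The summed level of the 8 enteroendocrine genes had a median of 668 CPM on RFD and 194 on HFD. The part of cell makeup in the diet estimates cannot be told apart from a change per cell.

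With the tuft list mean as a covariate, an alternative chosen after seeing the data, none of the 8 genes passed at either time with edgeR. Runx1 at 9 weeks was at -0.63 (log2, SE 0.24, adjusted p = 0.565, unadjusted p = 0.0138), the only one of the 8 with an unadjusted p under 0.05. Pou2f3 was at -0.30 (SE 0.24) in place of -1.19, Spib at -0.11 (SE 0.14) in place of -0.89 and Sox9 at -0.12 (SE 0.36) in place of -0.90. Gfi1b was at 0.46 and Hmx3 at 0.68. At 22 weeks Spib was at 0.27 (SE 0.10, adjusted p = 0.323, unadjusted p = 0.0141) and Pou2f3 at -0.07 (SE 0.14). The covariate holds genes that themselves differ between the diets, so it also takes up any diet effect that tuft genes share.

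Within a diet, the factors followed the tuft markers from mouse to mouse. After the diet means were subtracted, the log2 CPM of 7 of the 8 genes correlated with the mean of the tuft list at both times (64 correlations with 4 cell type lists, permutation within diet, two-sided, Benjamini-Hochberg adjustment). Spib was the closest, with r = 0.987 and rho = 0.956 over 22 mice at 9 weeks and r = 0.982 and rho = 0.940 over 23 mice at 22 weeks. Pou2f3 had r = 0.90 and rho = 0.947 at 9 weeks and r = 0.974 and rho = 0.913 at 22 weeks. The permutation p of these values of r and rho was 1e-05, the smallest that 100000 permutations can give, with adjusted p of 5.333e-05 for r and 4.923e-05 for rho.

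**Figure D3:**
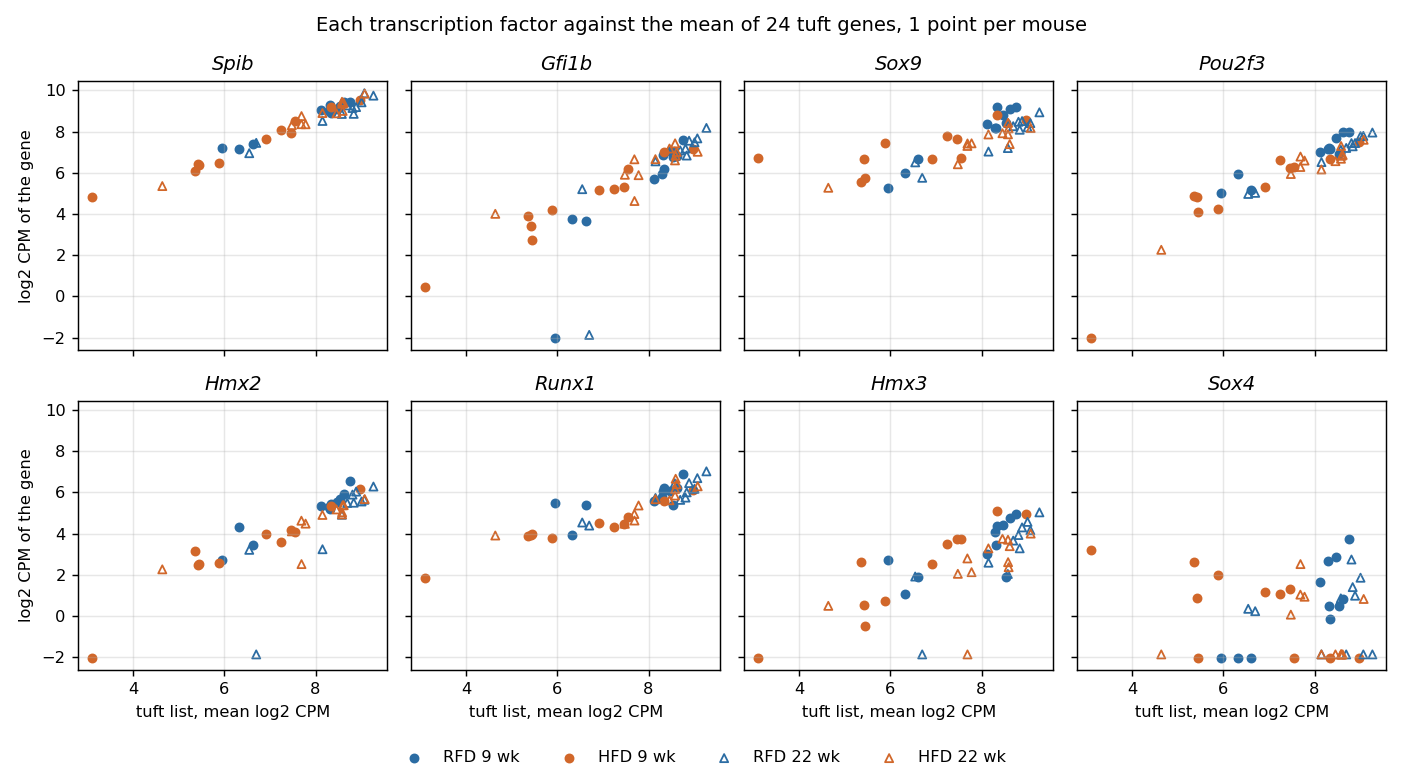
Log2 CPM of each of the 8 genes against the mean log2 CPM of 24 tuft genes, 1 point per mouse, with filled circles for 9 weeks and open triangles for 22 weeks. Spib rises along a narrow line, Gfi1b and Hmx2 have mice without a read far below it, and Sox4 shows no slope.

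Over the 7 genes r ran from 0.759 (Sox9) to 0.987 at 9 weeks and from 0.680 (Hmx3) to 0.982 at 22 weeks. Leaving out the 2 mice with the most extreme tuft level, r was between 0.845 and 0.990 at 9 weeks and between 0.819 and 0.943 at 22 weeks. Within the number series the lowest values were 0.439 for Sox9 at 9 weeks and 0.072 for Gfi1b at 22 weeks, where Gfi1b had 0.586, 0.363 and 0.072, so its relation was weak within series at that time. Sox4 was the exception, with r = -0.089 at 9 weeks (permutation p = 0.704) and -0.019 at 22 weeks (permutation p = 0.937), and its few reads limit what could be seen.

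The stem list ran against 4 of the genes at 9 weeks by r. The values of r were -0.633 for Runx1 (adjusted permutation p = 0.0164), -0.609 for Hmx3 (0.0206), -0.584 for Spib (0.0277) and -0.512 for Hmx2 (0.0991). By rho, Runx1 (-0.565, adjusted permutation p = 0.0375), Hmx3 (-0.509, 0.0801) and Spib (-0.495, 0.0868) passed and Hmx2 (-0.389, 0.222) did not. Leaving out the 2 mice with the most extreme stem level, r was -0.417, -0.491, -0.411 and -0.385 in the same order. Within the series r was -0.765, -0.594 and -0.441 for Runx1, -0.693, -0.615 and -0.451 for Hmx3, -0.664, -0.141 and -0.635 for Spib and -0.623, -0.201 and -0.578 for Hmx2. Sox9, which stem cells also express, had r = -0.164. These relations depended on the scale and the libraries. On log2(TPM + 1) none of the 8 passed with the stem list at 9 weeks, with r between -0.325 and -0.023, and Runx1 was at -0.094. Without the 2 libraries of low total reads (RFD mouse 40 and HFD mouse 50) 6 passed by r, adding Pou2f3 (-0.590, adjusted permutation p = 0.0662) and Gfi1b (-0.663, 0.0137). The correlations of 7 genes with the tuft list passed on log2(TPM + 1) at both times and without the 2 libraries at 9 weeks. At 22 weeks no library was under 500000 reads, so only the first setting applies there. No gene passed with the stem list at 22 weeks. There, Hmx3 (r = -0.543, adjusted permutation p = 0.0369) and Gfi1b (r = -0.507, 0.0991) passed with the enterocyte list by r but not by rho (-0.437 and -0.255, adjusted permutation p = 0.141 and 0.478). Without 2 mice r was -0.290 and -0.120, so these relations rested on few mice. Within the series r was -0.576, -0.542 and 0.147 for Hmx3 and -0.665, 0.039 and -0.054 for Gfi1b. Neither passed on log2(TPM + 1), and no gene passed with the T cell list at either time.

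Among themselves, the 8 genes formed 28 pairs. In the 21 pairs without Sox4, r of log2 CPM over the 45 libraries after subtracting the group means was between 0.638 and 0.896 (median 0.787), and all 21 passed (permutation within group, two-sided, p = 1e-05 each for r and rho, the smallest possible, adjusted p = 1.333e-05). The highest pairs were Gfi1b with Hmx2 (r = 0.896, rho = 0.859, 0.913 without 2 libraries), Pou2f3 with Spib (r = 0.885, rho = 0.909, 0.917 without 2) and the neighbours Hmx2 with Hmx3 (r = 0.870, rho = 0.843, 0.816 without 2). Within the number series they were 0.961, 0.822 and 0.788 for the first pair, 0.958, 0.847 and 0.889 for the second and 0.854, 0.910 and 0.689 for the third. Pou2f3 with Sox9 was the lowest of the 21, at 0.638 with all libraries and 0.817 without 2. None of the 7 pairs with Sox4 passed, with r between -0.207 and 0.163. All of these genes share the libraries and their tuft content.

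**Figure D4:**
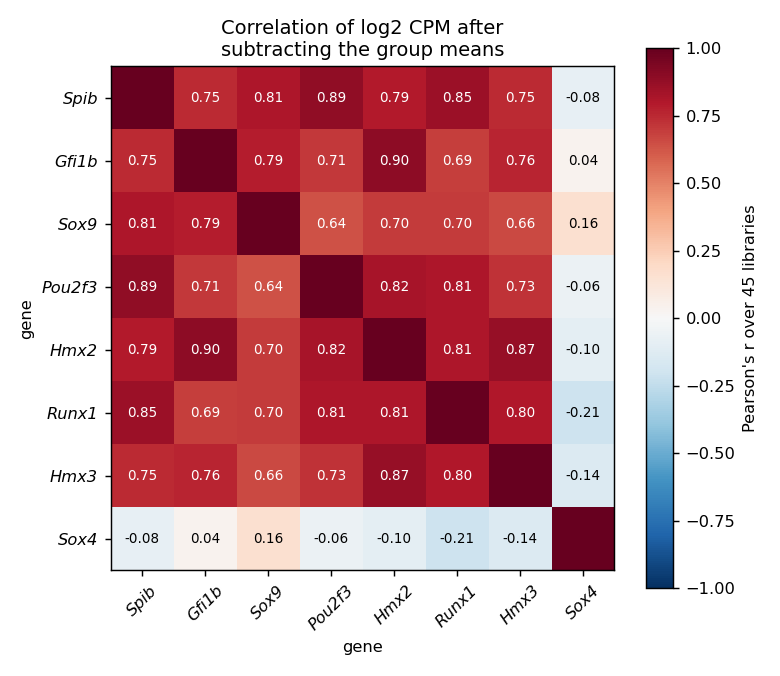
Pearson's r between the log2 CPM of each pair of the 8 genes over 45 libraries after subtracting the 4 group means, in the order of their median TPM. Colour gives r from -1 to 1. All pairs without Sox4 are at 0.64 or above, and the row of Sox4 is between -0.21 and 0.16.

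The genes with the most similar pattern were sought among 8881 genes with a median of at least 10 reads, by r over the same 45 libraries and with no test. For Pou2f3 they were the phospholipase gene Plcg2 (0.947), the kinase gene Bmx (0.947) and Ccdc28b (0.941). Spib was matched by the small GTPase gene Rac2 (0.983) and the prostaglandin synthase gene Ptgs1 (0.980). Next to Gfi1b stood Cpvl (0.954), Ndst1 (0.949) and Adgrg2 (0.941), and next to Hmx2 stood Rab11fip4 (0.940), the homeobox gene Prox1 (0.931) and Mien1 (0.928). Hmx3 was nearest to Gm45837 (0.886), to its neighbour Hmx2 (0.870) and to Tmem151a (0.839). Sox9 was nearest to Tmem98 (0.925), Selenok (0.905) and Rbm38 (0.902), and Runx1 to Pea15a (0.896), Strip2 (0.891) and Tmem245 (0.884). The median r over all candidates was 0.065 for Pou2f3 and 0.306 for Gfi1b. Of the 21 genes found by this search, 3 are in the tuft list. All 21 had a log2 fold change below 0 at 9 weeks (median -0.96), against 52.7% of all genes. At 22 weeks 19 did (median -0.46), against 52.1%. None of the 21 passed the diet test with edgeR at either time, against 3.32% of all genes at 9 weeks and 0.792% at 22 weeks. An unadjusted p under 0.05 was reached by 9 at 9 weeks, against 18.0% of all genes. At 22 weeks it was reached by 2, against 10.3%. Sox4 had too few reads for this search.

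Of 27 cofactors and relatives of the 8 genes, 16 were tested, and 12 of these had an estimate below 0 at each time, with median log2 fold changes of -0.26 and -0.34. None passed with edgeR at either time. An unadjusted p under 0.05 with a lower level was reached by 2 at 9 weeks, against 8.27% of all genes, and by 3 at 22 weeks, against 5.61%. DESeq2 called 1 and 0 of the 16, against 5.01% and 1.2% of all genes lower. limma-voom called 3 and 2, against 13.7% and 9.84%, and all these calls were lower on HFD. The smallest p at 9 weeks belonged to 1810046K07Rik, which encodes a coactivator of POU2F3, at 249.9 ± 118.2 CPM with RFD and 96.4 ± 81.7 CPM with HFD (SD over 11 mice each). The estimate was -1.37 (log2, SE 0.44, edgeR adjusted p = 0.116), and at 22 weeks it was -0.63 (SE 0.30, edgeR adjusted p = 0.471). Pou2f1, the widely expressed relative of Pou2f3, had the smallest p at 22 weeks, with a log2 fold change of -0.81 (SE 0.35, edgeR adjusted p = 0.419) after -1.27 (SE 0.45, edgeR adjusted p = 0.136) at 9 weeks.

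Among regulators of other intestinal fates, 13 of 20 genes were tested. Cdx2, the homeobox factor of intestinal identity, passed at 9 weeks and was higher on HFD, at 62.3 ± 23.1 CPM with RFD and 116.2 ± 31.6 CPM with HFD (SD over 11 mice each, log2 fold change 0.90, SE 0.21, edgeR adjusted p = 0.0472). It passed in 6 of 12 other settings, and not with the tuft list mean as a covariate (log2 fold change 0.59) or without RFD mouse 40 and HFD mouse 80, the lowest in tuft genes (0.77). At 22 weeks its log2 fold change was 0.67 (SE 0.37, edgeR adjusted p = 0.544). No other gene of this list passed with edgeR at 9 weeks, where 2.00% of all genes passed with a higher level. None passed at 22 weeks, where 0.792% of all genes passed. An unadjusted p under 0.05 with a higher level was reached by 2 genes at 9 weeks, against 9.73% of all genes. At 22 weeks 2 had one with a lower level, against 5.61%. DESeq2 called 2 higher at 9 weeks and 0 at 22 weeks. limma-voom called 4 higher and 2 lower at 9 weeks and 2 in each direction at 22 weeks. Of all genes, limma-voom called 13.7% lower at 9 weeks and 9.84% at 22 weeks. The shares of all genes that DESeq2 and limma-voom called higher are not given here, so their higher counts cannot be set against one. The related Cdx1 had the smallest p at 22 weeks, with a log2 fold change of -0.78 (SE 0.31, edgeR adjusted p = 0.360).

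Of the 24 tuft genes, none passed with edgeR at either time. An unadjusted p under 0.05 with a lower level was reached by 8 at 9 weeks, against 8.27% of all genes, and by 4 at 22 weeks, against 5.61%. DESeq2 called 3 and 0 of the 24, against 5.01% and 1.2% of all genes lower. limma-voom called 23 and 14, against 13.7% and 9.84%, and all these calls were lower on HFD. The smallest p at 9 weeks was that of the prostaglandin D synthase gene Hpgds (log2 fold change -0.95, SE 0.39, edgeR adjusted p = 0.191), and at 22 weeks that of the succinate receptor gene Sucnr1 (-0.82, SE 0.33, edgeR adjusted p = 0.384). Dclk1, a kinase used as a tuft marker, had log2 fold changes of -0.55 (SE 0.47) and 0.00 (SE 0.30) at 9 and 22 weeks, and the cation channel gene Trpm5 had -1.14 (SE 0.61) and -0.37 (SE 0.33). The cytokine gene Il25 had -1.44 (SE 0.61, edgeR adjusted p = 0.207) and -1.11 (SE 0.46, edgeR adjusted p = 0.396).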

How the data were processed

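Tuft cells of 45 mice were measured by bulk RNA sequencing. Per the submitters' processing notes, the authors trimmed reads with cutadapt 1.15, aligned them with STAR 2.6.0 to GRCm38 and quantified genes with RSEM. The gene annotation is not given in the sources used here. The deposited values used are RSEM expected counts, of which 8.79% above 0 were not whole, and the TPM of the same genes. Neither was weighed by cell type as in the study's own test. The count tables of the 2 sets together held 24 further columns that match none of the 45 libraries and were not used. The FPKM was not used either. Because expected counts divide shared reads among genes, values of close relatives are uncertain.

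Counts were rounded. Genes with more than 5 reads in at least 6 libraries were kept, 1 per symbol (14020). edgeR 4.0.16 (R 4.3.3) with TMM normalization and the robust quasi-likelihood test compared HFD with RFD in each set, and an interaction used all 45 libraries. Adjusted p is after Benjamini-Hochberg over all genes tested, with a threshold of 0.1. Intervals use the t distribution. CPM was normalized within each set, and log2 CPM had a prior count of 0.5. limma 3.58.1 and DESeq2 1.42.0 were alternatives. The edgeR test within each set and the permutation correlations were tested on simulated data first, and the other steps were not. In simulated counts with 200 genes changed and 1 spread for all genes, edgeR passed 0% of 2-fold changes at 9 weeks and 2% at 22 weeks. It passed 63.5% and 86% of 4-fold changes. The changed genes were drawn only from genes with many reads. These shares therefore do not cover Sox4 and Hmx3, which had medians of 2 and 14 reads.

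The 8 genes and all lists were chosen with earlier results of these data known. Named genes were the 8, for each with a median of at least 10 reads the 3 most correlated genes, every cofactor, fate regulator or tuft gene that passed, the gene with the smallest p in each of these lists and sets, and Dclk1, Trpm5 and Il25. 1 of the correlated genes is not reported here. Olfm4, Smoc2 and Gkn3 were named after their values were seen. Each library is 1 mouse, with 4 mice housed per cage. Cages are not in the labels. Limits from 0 counts cover counting error only. The kit does not mark strand.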

Additional observations from a re-analysis of the deposited data

How the results depend on the processing

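With 12 other settings at 9 weeks and 11 at 22 weeks, all 8 genes kept a log2 fold change below 0 except where a cell makeup covariate or the TPM scale turned it. The cause was not tested. Genes called at 9 weeks (466) became 1505 without a filter, 1534 with DESeq2, 4245 with limma-voom and sample weights, 9 and 5 with limma on log2(TPM + 1) and log2(TPM + 0.1), 23 with tuft minus other markers and 14 with the tuft list as a covariate, 290 without libraries of low total reads, and 117 without the library lowest in tuft genes in each group. Higher genes were 60.1% of calls, 46.2% without the libraries of low total reads, 40.2% without those lowest in tuft genes, and 45.3% with 1 fit over all libraries. Of the 8 genes, 1 called became 2, 2, 7, 0, 0, 0, 0, 0 and 0 in the same order of settings. At 22 weeks 111 genes became 430, 351, 2536, 51, 31, 187 with the series as a batch term, 343 without the libraries lowest in tuft genes, and 63 with 1 fit, and the 8 genes had 3 called with limma-voom. The interaction had 65 genes without a filter.

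Signs turned with the tuft list as a covariate for Gfi1b (0.46), Hmx3 (0.68) and Dclk1 (0.12) at 9 weeks and for Gfi1b (0.043), Spib (0.27), Hmx2 (0.10), Sox9 (0.055) and Trpm5 (0.012) at 22 weeks. With tuft minus other markers they turned for Hmx3 at 9 weeks (0.20) and Spib at 22 weeks (0.057), and with log2(TPM + 0.1) for Gfi1b (0.25) and Hmx2 (0.081) at 22 weeks. Dclk1 at 22 weeks, at 0.00, was -0.38 with limma-voom and -0.39 on both TPM scales. Interaction estimates turned for Hmx3 with limma-voom (0.71) and on the TPM scales (0.11 and 0.49), for Sox4 with log2(TPM + 1) (0.13), with the tuft covariate (0.32) and without the libraries lowest in tuft genes (0.27), for Gfi1b with both covariates (-0.031 and -0.14) and for Sox9 with the tuft covariate (-0.061). On log2(TPM + 1), r of Sox4 with the tuft list was 0.144 and 0.030. By CPM, which favours long transcripts, Sox9 ranked 2, Pou2f3 3, Gfi1b 4, Runx1 5 and Hmx2 6. No setting at 22 weeks left out libraries under 500000 reads, since there were none. No paired analysis was possible because RFD and HFD mice share no mouse number within a set. With 11 or 12 mice per group and a wide spread of tuft RNA, the SE of the 8 log2 fold changes was between 0.31 and 0.91.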
